A study of Mus musculus with 4 samples.

Results

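Chromatin regions more open in Th2 cells than in naive and other effector T helper cells, but listed as different from regulatory T cells (Treg) in no table, numbered 2090 of 52537 merged regions. They were found by merging the rows of 6 tables deposited by the authors, which list sites of differential accessibility between each 2 of 4 populations, wherever rows overlapped by at least 1 bp. A merged region was kept when its rows came from exactly 2 tables, Th2 against naive and Th2 against other effector cells. The members were therefore chosen by measured values, the authors' calls in those 2 tables and the lack of a call in the other 4. Their direction and folds in the 2 tables are given below as a description without a test. A region that is not listed is not thereby equal between populations, since the tables hold only the regions that the authors called.

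The measurement was ATAC-seq, in which a transposase cuts and tags open DNA. Mice had received house dust mite, an allergen that is given to sensitize and then challenge the airways in a model of asthma, and cells were sorted at day 15. Th2 cells were CD3+ CD4+ CD44+ ST2+ CD30L+ cells, Treg cells were CD3+ CD4+ CD25hi CD30L- cells, and other effector cells were CD3+ CD4+ CD44+ ST2- CD30L+ cells, the memory cells outside the Th2 gate. These 3 populations came from lung with airways. Naive cells were CD3+ CD4+ CD44lo CD62Lhi cells of the mediastinal lymph node per the protocol, so each Th2 against naive fold is also a contrast of tissues. No genotype, strain or age is named in the labels used here. The protocol gives 3 biological replicates of 1000 cells per population, while the deposited tables give 1 fold per region with no replicate value, p-value or read count. Every fold below is the authors' own log2 value, without an error, and the depth behind it is unknown.

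Th2 cells are the CD4 T cells that secrete IL-4, IL-5 and IL-13, which drive IgE production, eosinophil recruitment and mucus secretion in allergic airways. Treg cells restrain such responses. Both populations came from the lung of mice given allergen, and the Treg gate did not use CD44. Th2 and Treg cells can use enhancers (distal stretches of open DNA bound by transcription factors) that naive cells keep closed. GATA factors specify Th2 cells, while AP-1, NFAT, STAT and NF-kB factors carry signals from the antigen and cytokine receptors. In sorted bulk cells, fewer cells with an open site and less openness per cell cannot be told apart.

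Promoters under the members show the sequence of some of these regions. Among 8 genes of the lists below whose promoter window lies under a member, Il4, Il13, Il6, Cish and Havcr2 are shown, as cytokine and receptor signalling genes that hold at least 1 of 7 short motifs searched. They are RefSeq sequences of build GRCm38.p6, each running 300 bases from 250 before to 50 after the start site in RefSeq's promoter table, 5′ to 3′ on the gene's strand. Capitals mark motif matches on either strand. Il4 is chr11:53617289-53617588 on the minus strand, and its tabulated start lies 1327 bases inside the outer end of the gene. Il13 is chr11:53634653-53634952, minus strand. Il6 is chr5:30012864-30013163, plus strand. Cish is chr9:107296409-107296708, plus strand. Havcr2 is chr11:46454681-46454980, plus strand. These last 4 start sites are gene ends.
Il4: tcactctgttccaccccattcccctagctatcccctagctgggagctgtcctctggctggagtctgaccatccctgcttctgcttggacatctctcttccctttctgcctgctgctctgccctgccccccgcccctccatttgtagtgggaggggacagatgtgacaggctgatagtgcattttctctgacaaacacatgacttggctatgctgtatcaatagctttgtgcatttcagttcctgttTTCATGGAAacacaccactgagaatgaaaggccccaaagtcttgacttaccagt
Il13: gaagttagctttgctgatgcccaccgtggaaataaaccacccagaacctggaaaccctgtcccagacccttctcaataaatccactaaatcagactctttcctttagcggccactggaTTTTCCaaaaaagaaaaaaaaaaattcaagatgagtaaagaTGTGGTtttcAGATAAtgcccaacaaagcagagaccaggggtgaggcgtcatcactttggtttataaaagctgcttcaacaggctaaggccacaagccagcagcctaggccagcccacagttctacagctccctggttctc
Il6: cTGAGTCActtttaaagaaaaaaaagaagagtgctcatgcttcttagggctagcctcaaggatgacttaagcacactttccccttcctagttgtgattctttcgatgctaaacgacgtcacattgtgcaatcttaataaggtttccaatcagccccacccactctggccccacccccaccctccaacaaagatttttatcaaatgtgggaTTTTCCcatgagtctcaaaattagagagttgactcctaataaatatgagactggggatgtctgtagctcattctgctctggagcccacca
Cish: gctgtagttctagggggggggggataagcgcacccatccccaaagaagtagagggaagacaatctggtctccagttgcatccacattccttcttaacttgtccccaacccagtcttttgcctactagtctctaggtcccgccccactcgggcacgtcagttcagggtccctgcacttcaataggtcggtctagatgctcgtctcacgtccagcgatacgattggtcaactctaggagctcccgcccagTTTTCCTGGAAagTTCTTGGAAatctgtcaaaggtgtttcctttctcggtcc
Havcr2: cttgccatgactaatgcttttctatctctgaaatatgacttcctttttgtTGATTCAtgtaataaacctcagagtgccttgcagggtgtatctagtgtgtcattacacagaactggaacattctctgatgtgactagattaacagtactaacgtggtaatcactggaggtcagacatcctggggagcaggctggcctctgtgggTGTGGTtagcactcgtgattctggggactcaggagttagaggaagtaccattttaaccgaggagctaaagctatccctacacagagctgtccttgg

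The window of Il4, the cytokine that both instructs and marks Th2 cells, lay wholly inside a member. It held a STAT motif (TTCNNNGAA) whose first base is 4 bases before the tabulated start site. That member ends at chr11:53617866 and does not reach the outer end of the gene at chr11:53618665. The window of Il13, the mucus-inducing cytokine, was covered over 174 of its bases, and that part held a GATA motif (AGATAA) 81 bases and a RUNX motif (TGTGGT) 91 bases before the start. An NFAT motif (GGAAAA, here on the opposite strand) 132 bases before the Il13 start fell outside the member. Il6 encodes an inflammatory cytokine, and its window held an AP-1 motif (TGANTCA) 249 bases and an NFAT motif 40 bases before the start. Cish encodes a STAT-induced inhibitor of cytokine receptor signalling. Its window held 2 STAT motifs, 1 beginning at the start site and 1 beginning 11 bases after it, and the first overlaps an NFAT match that begins 2 bases before the start. Havcr2 encodes the inhibitory receptor TIM-3, and its window held an AP-1 motif 200 bases and a RUNX motif 46 bases before the start. A match is a run of letters and does not show that a factor was bound.

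Few members lie at promoters. Of the 2085 members on placed chromosomes, 142 (6.81%) overlapped a promoter window, against 15.6% of all merged regions. The share was 7.17% in regions also listed higher in Th2 than in Treg cells and in no further table. It was 6.59% in regions shared by Th2 and Treg cells, so the low share is not particular to the members. The 142 members touched 165 windows of 144 genes, of which 8 genes are on the lists below, and 100 windows lay wholly inside a member. Members covering a gene end of Slc15a3, Eif4ebp1 and Socs2 touched no window. These counts therefore depend on which start sites RefSeq's promoter table holds. AP-1 letters were found in 9.7% of the 165 windows, against 6.99% of all 21263 windows of protein-coding genes and 4.44% of the 10034 windows under any merged region. ETS letters (CCGGAA) were found in 10.9% of the windows under members, against 18.7% of all windows and 30.5% of those under any merged region. GATA letters were found in 7.27% of windows under members, against 9.65% of all windows and 5.42% under any region. NFAT letters were found in 15.8% of windows under members, against 22.3% of all and 19.4% under any region. RUNX letters were found in 13.9% of windows under members, against 15.0% of all and 11.7% under any region. STAT letters were found in 7.27%, against 7.69% of all and 6.32% under any region, and TCF letters (CTTTGAA) in 2.42%, against 4.54% and 3.16%. For AP-1, both backgrounds lay below the members' share and for ETS, NFAT and TCF above it, while for GATA, RUNX and STAT the members stood between them. The counts behind these shares are small, with 16 windows for AP-1 and 4 for TCF. A member can touch several windows, as at Ak4. Letters were counted over the whole window, also where the member covers 30 bp of it, as at Ptgs2. These shares describe promoters only, and the sequence of distal members was not searched here.

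All 2090 members were listed higher in Th2 cells in both tables. In the whole set of merged regions, 9.67% were listed higher in Th2 than naive cells and 53.2% higher in Th2 than other effector cells. The rule used both contrasts, so nothing is read from the members' count. The table of other effector cells is one-sided, with 28175 rows higher in Th2 cells and 0 higher in other effector cells. The tables of naive and Treg cells against other effector cells likewise held 0 rows higher in other effector cells. A place in the table against other effector cells therefore sets few regions apart, and the table against naive cells did most of the selecting: only 70 merged regions were listed against naive cells alone, while 9079 were listed against other effector cells alone. Listed higher in Th2 than in Treg cells were 6.72% of merged regions and higher in Treg than in Th2 cells 3.34%, which are by the rule 0 members in both cases.

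The members' log2 folds in the authors' deposited tables, turned here to Th2 minus the other population, ran in Th2 minus naive between 3.47 and 9.42 with a median of 5.17 (quartiles 4.63 and 6.08). In Th2 minus other effector they ran between 3.55 and 9.23, also with a median of 5.17 (quartiles 4.54 and 6.07). All 5079 regions listed higher in Th2 than naive cells had a median of 5.59, and all 27959 listed higher in Th2 than other effector cells had a median of 5.41. The smaller of a member's 2 folds had a median of 5.0. The same quantity had a median of 5.88 in 1257 regions that were also listed higher in Th2 than in Treg cells and in no further table. It had a median of 5.74 in 1354 regions listed higher in both Th2 and Treg than in both naive and other effector cells. The members stood below both of these neighbouring sets in the fold that all of them share. The rule used these folds and left out every region listed in a Treg table, so this order is a description of the selection.

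The share of members fell as the fold grew, again in folds that the rule used, so this trend too is a description of the selection. Of the 4994 regions higher in Th2 than in both naive and other effector cells, 2090 (41.9%) were members. Divided into 4 equal groups by the smaller fold, the members made up 64.1% of the lowest group (folds of 3.47 to 4.70), 42.8% of the next, 33.3% of the next above and 27.3% of the highest (6.33 to 11.32). Regions also listed higher in Th2 than in Treg cells took the opposite course over the same groups, with 9.13%, 25.6%, 30.6% and 35.7%. Regions shared by Th2 and Treg cells made up 18.9%, 25.6%, 30.9% and 33.1%. The smallest Th2 minus Treg fold that the authors listed was 4.02, and 14 members had both of their own folds below it. The highest group held 341 members and 446 regions listed higher in Th2 than in Treg cells, against 800 and 114 in the lowest.

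**Figure D1:**
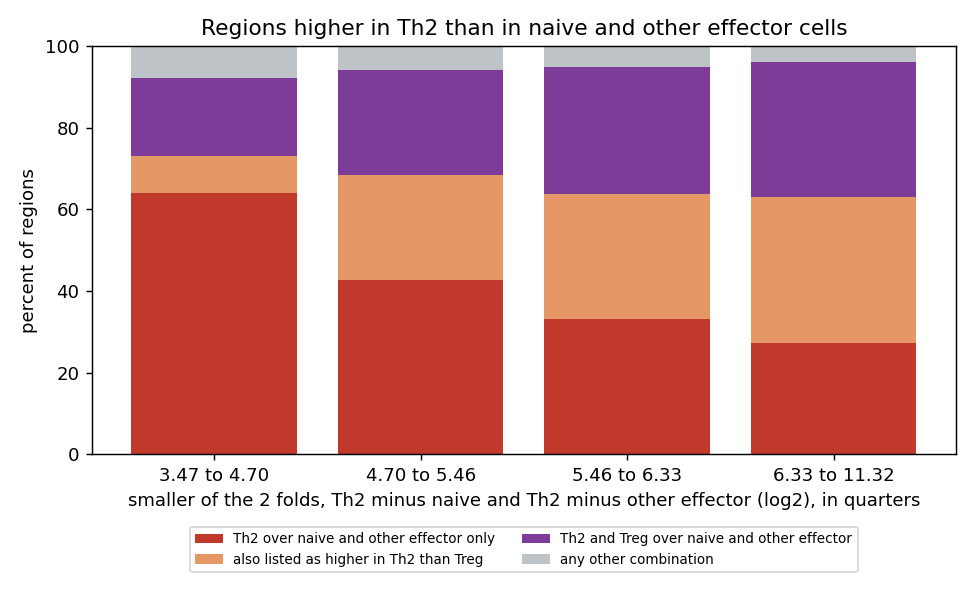
Regions listed higher in Th2 than in both naive and other effector cells (n = 4994), divided into 4 equal groups by the smaller of the 2 log2 folds (horizontal axis), with the percent of each group (vertical axis) that falls in each listing pattern by colour. The members (red, at the bottom) make up 64.1% of the lowest group and 27.3% of the highest.

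A member's 2 folds mostly differed by a constant. Both tables share the Th2 population, so where a member's rows cover the same interval the difference between the folds stands for the authors' value for other effector cells minus that for naive cells. No region listed in all 3 tables of these populations allowed a check of this sum. It was 0.17 or 0.18 at 1418 of 2090 members (67.8%), and these ran over Th2 minus naive folds of 3.84 to 8.93. Among the 1621 members whose rows have the same start and end in both tables it was 0.17 or 0.18 at 1328 (81.9%). The same constant held at 64.3% of the 1257 regions that were also higher than Treg and at 75.3% of the 1354 shared with Treg. The cause of the constant was not tested. Of the remaining members, 286 had a larger difference and 386 a smaller one. It was below 0 at 290 members, 169 of them with identical rows, and at or below -1 at 112, 58 of them with identical rows. At the rest of these members the 2 folds come from differing intervals. A member with identical rows inside Rptor, an mTOR complex gene, had 5.10 in Th2 minus naive and 7.32 in Th2 minus other effector.

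**Figure D2:**
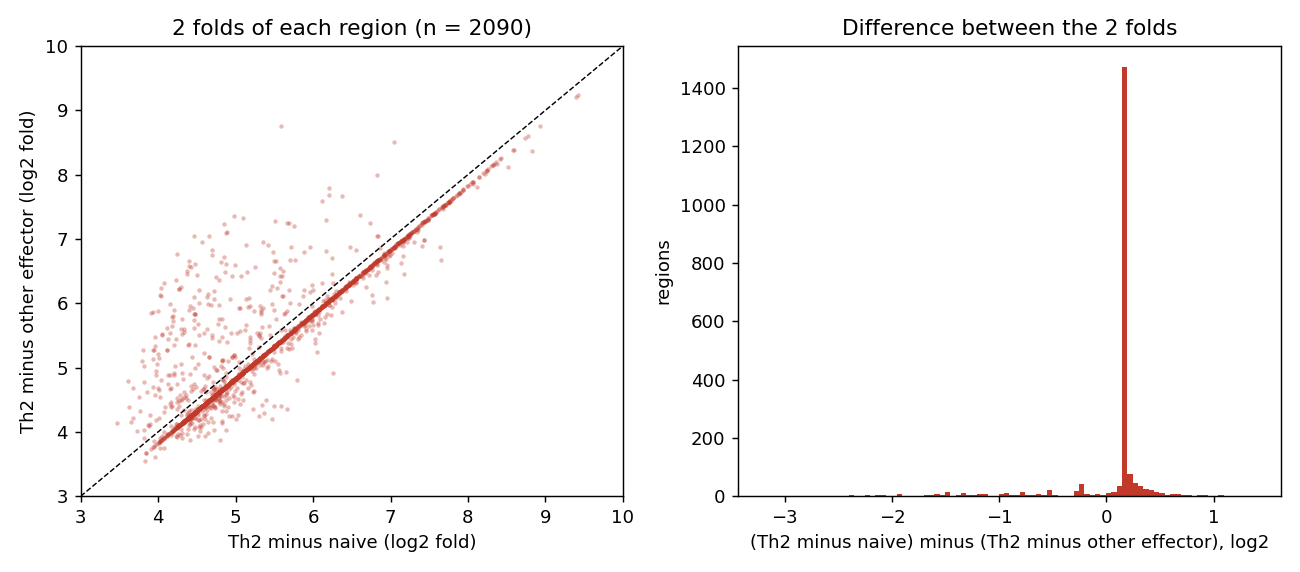
Left, the log2 fold of Th2 minus naive (horizontal) against Th2 minus other effector (vertical) for each of the 2090 members, as the authors' tables give them with the sign turned, and the dashed line of equal folds. Right, the number of members by the difference between the 2 folds, which was 0.17 or 0.18 at 1418 members.

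The members with the largest folds lay near genes of varied roles. Distances to genes, here and below, run from a region's midpoint, and a region counts as inside a gene when its midpoint does. Slc15a3 encodes a lysosomal peptide and histidine transporter. A member covering the gene's end had its midpoint 388 bp outside the gene. Its log2 folds in the authors' deposited tables were 9.40 in Th2 minus naive and 9.21 in Th2 minus other effector. Wee1 encodes a kinase that holds cells before mitosis, and a region 12794 bp from it had 8.93 and 8.75 in the same contrasts. Eif4ebp1 encodes a translational repressor controlled by mTOR. Its only listed region was a member that covered the gene's end, with a midpoint 442 bp inside. That region had 8.77 in Th2 minus naive and 8.60 in Th2 minus other effector. The region over the Cish promoter printed above had 8.74 in Th2 minus naive and 8.57 in Th2 minus other effector. Pde4b, which degrades cyclic AMP, had a member 17117 bp away with 8.58 and 8.39 in those contrasts. The start of Atf3, a stress-induced bZIP factor, lay under a member 1652 bp wide with 8.82 in Th2 minus naive and 8.36 in Th2 minus other effector. Of the 10 members with the largest smaller fold, Eml6 and Amn1 were the nearest genes of 2 more, and 2 lay on an unplaced sequence of the assembly, where unique read mapping was not examined. The 3 members with the smallest lower fold were a region in Taf3, a TFIID subunit gene, with 3.47 in Th2 minus naive and 4.14 in Th2 minus other effector, a region in Mbnl2, a splicing factor gene, with 3.83 and 3.55, and one in Gramd4 with 3.61 and 4.79. The smallest fold listed for any region higher in Th2 was 3.47 against naive cells and 3.46 against other effector cells, and regions that the authors did not call are not in the tables. The 2 rows of a member overlapped by at least 150 bp, and the closest pair of rows that failed to merge into a member lay 7 bp apart.

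Most members are distal. Within 1 kb of a gene end lay 224 of 2085 placed members (10.7%, exact 95% binomial interval 9.45 to 12.2%), against 21.9% of all merged regions (21.6 to 22.3%). The 1257 regions also higher than Treg had 9.95%, the 1354 shared with Treg 9.55%, and 1343 regions listed only as higher in Treg than in naive and other effector cells had 7.61%. Members therefore sat near gene ends less often than listed regions in general and about as often as the neighbouring sets, whose intervals overlap theirs except for the Treg set. Between 10 and 100 kb from any gene end lay 53.2% of members, against 43.3% of all regions. The median distance was 16780 bp for members and 10633 bp for all regions. Inside a gene lay 1123 members (53.9%), against 60.3% of all regions. The members were 448.5 bp wide at the median, and all regions 497 bp. The intervals cover counting error only, and regions are not replicates of a condition.

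By the gene holding the midpoint, otherwise by the nearest gene end within 100 kb, 1943 members were assigned to 1537 genes, while 142 placed members lay outside genes with no gene end within 100 kb. With those deep inside long genes, 206 members (9.88%) had every gene end over 100 kb away, against 7.98% of all merged regions. The regions also higher than Treg had 11.3% and those shared with Treg 9.77%. Of the 1537 genes, 1240 had 1 member, 221 had 2, 54 had 3 and 22 had 4 to 6. Another member lay within 10 kb of 303 members (14.5%) and within 100 kb of 913 (43.7%). Neither this spacing nor the runs below were counted for all merged regions or for the neighbouring sets. No clustering particular to the members can therefore be read from them. Chained at 10 kb, the members formed 1787 single regions, 119 pairs, 15 runs of 3 and 5 runs of 4. One run of 4 spans 14983 bp beside Rbpj (chr5:53532164-53547146), and another spans 13843 bp beside Dusp5 (chr19:53554422-53568264). A further one lies 65056 to 82131 bp from Akap11 (chr14:78409887-78427408), one has no gene end within 100 kb (chr6:31065192-31081156), and one is on an unplaced sequence. Chromosome 2 held the most members, 215 (10.3%), against 8.09% of all merged regions. Coordinates are those of the deposited tables, 1-based and read as GRCm38.

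Rbpj, the DNA-binding partner through which Notch receptors act on transcription, had 6 members among 21 listed regions. Dusp5, which inactivates the kinase ERK, had 4 among 22. In Th2 minus naive, the 6 Rbpj members had log2 folds of 5.84, 6.23, 6.98, 4.83, 6.82 and 4.82 along the chromosome, and in Th2 minus other effector 5.67, 6.06, 6.81, 4.66, 6.65 and 4.65. A fixed distance separated the contrasts at all 6. The first lay 52157 bp from the gene, the next 4 between 23231 and 8975 bp from it, and the last inside it. Of the other Rbpj regions, 2 were listed higher in Th2 than in Treg cells, 2 were shared by Th2 and Treg cells, 2 were listed only as higher in Treg than in naive and other effector cells, and none was listed higher in Treg than in Th2 cells. The 4 Dusp5 members had 6.05, 5.50, 7.12 and 6.41 in Th2 minus naive and 5.88, 5.32, 6.95 and 6.22 in Th2 minus other effector.

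Zeb2, a zinc-finger factor of terminally differentiated T cells, also had 6 members, of 21 listed regions. Their log2 folds in Th2 minus naive were 7.88, 6.17, 6.05, 8.23, 4.98 and 5.92, and in Th2 minus other effector 7.70, 6.0, 5.24, 8.06, 4.77 and 5.75. The strongest lay inside the gene, and the second strongest 27019 bp outside it. Atxn1, which encodes a nuclear cofactor, had 6 members of 45 regions, with smaller folds of 4.49 to 7.57, all inside the gene. Arhgap26, which encodes a GTPase-activating protein, had 6 of 17, all inside the gene, with smaller folds of 4.26 to 5.66. Nfkb1 encodes the p105 and p50 NF-kB subunits and had 5 members of 28 regions, all inside the gene, with smaller folds of 4.77 to 7.0. Jdp2, an AP-1 partner gene, had 5 of 19, and Sik3, a salt-inducible kinase gene, had 5 of 25.

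The 15 genes with 4 members were Mgat5, Rftn1, Dusp5, Eed, Chst11, Itpr1, Igfbp7, Atxn7l1, Akap11, Fryl, Cemip2, Etv6, Nedd9, Eml4 and Mtus1. Itpr1, the IP3 receptor through which antigen receptors release calcium, had 4 members and 8 regions higher in Th2 than in Treg cells among 37. Etv6, an ETS family repressor gene, had 4 members and 5 such regions among 33. Eed, a Polycomb subunit gene, was the nearest gene of 4 members 35711 to 61567 bp away and of 5 regions shared by Th2 and Treg cells, with 0 regions higher in Th2 than in Treg. Mtus1 had 4 members of 8 regions, and Eml4 4 of 10. The members of a gene thus often stood beside regions with other listing patterns, and in differing mixes.

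**Figure D3:**
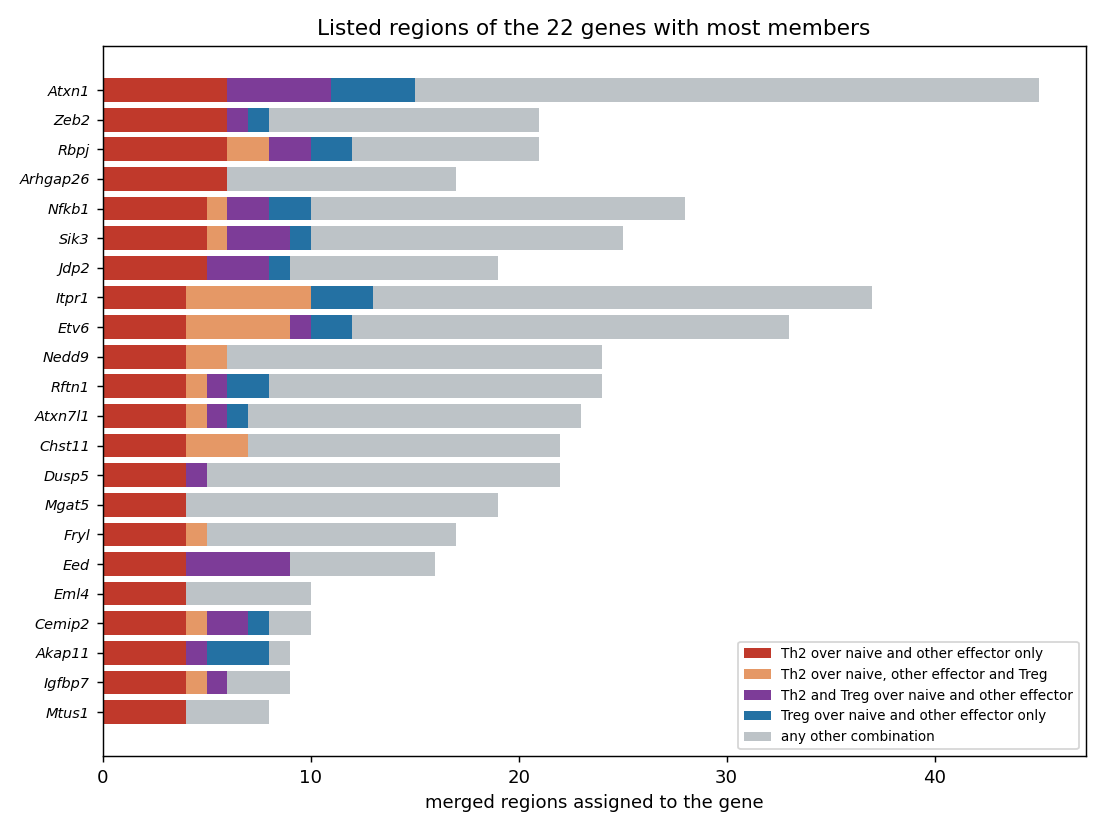
Merged regions assigned to each of the 22 genes with most members (horizontal axis, number of regions), coloured by the tables in which they were listed. The members are the red segments at the left, 4 to 6 for each gene, and Itpr1 holds the most regions listed higher in Th2 than in naive, other effector and Treg cells.

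Over all 1537 genes with a member, 574 (37.3%) also had a region listed higher in Th2 than in Treg cells, against 16.1% of all 13871 genes with a merged region. A region listed higher in Treg than in Th2 cells was found at 238 of them (15.5%), against 8.85% of all genes. A region shared by Th2 and Treg cells was found at 302 (19.6%), against 7.14%, and one listed only as higher in Treg than in naive and other effector cells at 232 (15.1%), against 7.25%. In the table of Treg against naive cells, 6.64% of all merged regions were listed higher in Treg cells, and by the rule 0 members. Genes with a member had a median of 5 listed regions and all genes 2, which moves with each of these shares, and its part in them was not tested. At 834 of the 1537 genes (54.3%) no region was listed in the table of Treg against Th2 cells. For the other genes, the member was 1 region without such a call beside another that had one.

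The type 2 cytokine locus on chromosome 11 holds Il4, Il13 and Il5, with Rad50 (a DNA repair gene whose introns carry the locus control region of the cytokines) and Kif3a (a kinesin gene). It had 20 listed regions, of which 9 were members, 18 were higher in Th2 than other effector cells, 1 was higher in Th2 than in Treg cells and 0 were higher in Treg than in Th2 cells. The region over Il4 (chr11:53617207-53617866) was the only one listed for that gene, and it had a log2 fold of 7.11 in Th2 minus naive and 6.94 in Th2 minus other effector. The members of Rad50 (chr11:53655102-53655400 and chr11:53662740-53663661) had 6.55 and 6.77 in Th2 minus naive, and 6.38 and 6.59 in Th2 minus other effector. Between them, at chr11:53656674-53657226, lay a region listed only as more open in Treg than in naive and other effector cells, with deposited folds of -6.87 in naive minus Treg and -6.7 in other effector minus Treg, and in no table of Th2 cells.

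Il13 had 3 members. The one over the promoter printed above (chr11:53634562-53634826) had 5.43 in Th2 minus naive and 5.26 in Th2 minus other effector. The members 1047 and 1624 bp from the nearest gene end had 4.47 and 5.72 in Th2 minus naive, and 5.83 and 5.55 in Th2 minus other effector. The single region of the locus that was listed between Th2 and Treg cells lay on the other side of Il13 (chr11:53626744-53627138), at 7.16 in Th2 minus naive, 6.99 in Th2 minus other effector and -4.81 in Treg minus Th2. Il5, the eosinophil growth factor gene, had members at 980 bp (chr11:53719396-53720232) and 1714 bp (chr11:53726625-53727010) from its ends. These had 6.56 and 4.63 in Th2 minus naive, and 6.39 and 4.34 in Th2 minus other effector. The Kif3a member had 4.32 in Th2 minus naive and 4.15 in Th2 minus other effector. A region between Kif3a and Il4 was shared with Treg cells, at 7.29 in Th2 minus naive and with a deposited fold of -5.72 in naive minus Treg. In all, 7 of the 20 regions were listed in a table with Treg cells.

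**Figure D4:**
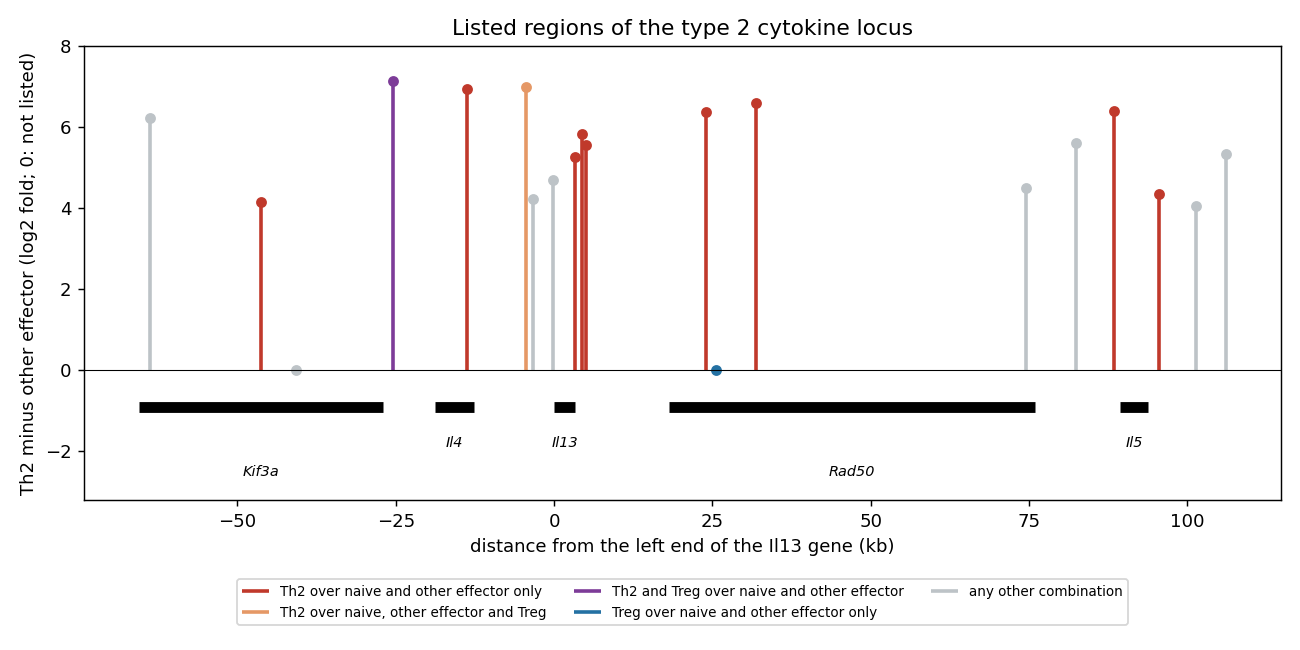
Listed regions of the type 2 cytokine locus by distance from the left end of Il13 (horizontal, kb) and log2 fold of Th2 minus other effector (vertical, 0 where not listed in that table), with black bars for the genes. The 9 members (red) lie from Kif3a to Il5, and 1 region (orange) is also listed higher in Th2 than in Treg cells.

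Across 19 gene lists, members made up 27.7% of the regions of the list of type 2 cytokine genes and their locus (18 of 65). Over all regions assigned to a gene the share was 3.90% (1943 of 49848). This list also holds cytokine genes outside the locus, among them Il6, Tnfsf11, Csf2 and Il10, with 3, 3, 2 and 1 of the 18 members. Higher in Th2 than naive cells, a contrast that the rule used, were 34 of the 65, against 4731 of the 49848. Members were thus 18 of 34 such regions on this list and 1943 of 4731 over all genes. Shared by Th2 and Treg cells were 10 of the 65, against 1264 of the 49848, so a like set also stood high on this list. These lists were drawn up with earlier results of these data known, so the counts are a description. The median smaller log2 fold was 5.60 on this list and 5.0 over all assigned members. Beyond the locus, Il6 had 3 members, the highest of them over the promoter with 7.14 in Th2 minus naive and 6.63 in Th2 minus other effector. Tnfsf11, the gene of RANKL, also had 3, with smaller folds of 4.30 to 5.91. Csf2, the gene of the myeloid growth factor GM-CSF, had 2, with smaller folds of 4.09 and 4.41. Il10, the gene of an inhibitory cytokine made by Th2 and Treg cells, had 1 member, at 6.71 in Th2 minus naive and 6.54 in Th2 minus other effector, beside 6 regions shared by Th2 and Treg cells.

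Transcription factors of Th2 cells followed, with 29 members of 293 regions (9.90%) at 10 of 20 genes. Shared by Th2 and Treg cells were 22 of the 293, so a like set also stood high here. Gata3, the master regulator of Th2 cells, had 0 members among its 11 regions, 5 of which were higher in Th2 than other effector cells and none of which was listed between Th2 and naive cells. Of the 11, 9 were higher in Treg than other effector cells, and 1 (chr2:9875945-9876210) was higher in Treg than in Th2 cells, at 6.17 in Treg minus Th2. Bhlhe40, a cytokine-regulating factor gene, had 3 members of 12, the strongest with 7.03 in Th2 minus naive and 6.86 in Th2 minus other effector. Pparg, the lipid-sensing nuclear receptor gene, had 2 members of 13, with smaller folds of 4.49 and 4.71, beside 6 regions shared by Th2 and Treg cells. Runx1 and Rora, both lymphocyte factors, had 3 members each, with smaller folds up to 7.58 and 6.50. Prdm1, which encodes the effector-cell repressor Blimp-1, had 2, and Batf, an AP-1 family factor needed for Th2 and Th17 cells, had 1. Rbpj and Zeb2 hold 12 of the 29. Counting only genes within 10 kb left 17.

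**Figure D5:**
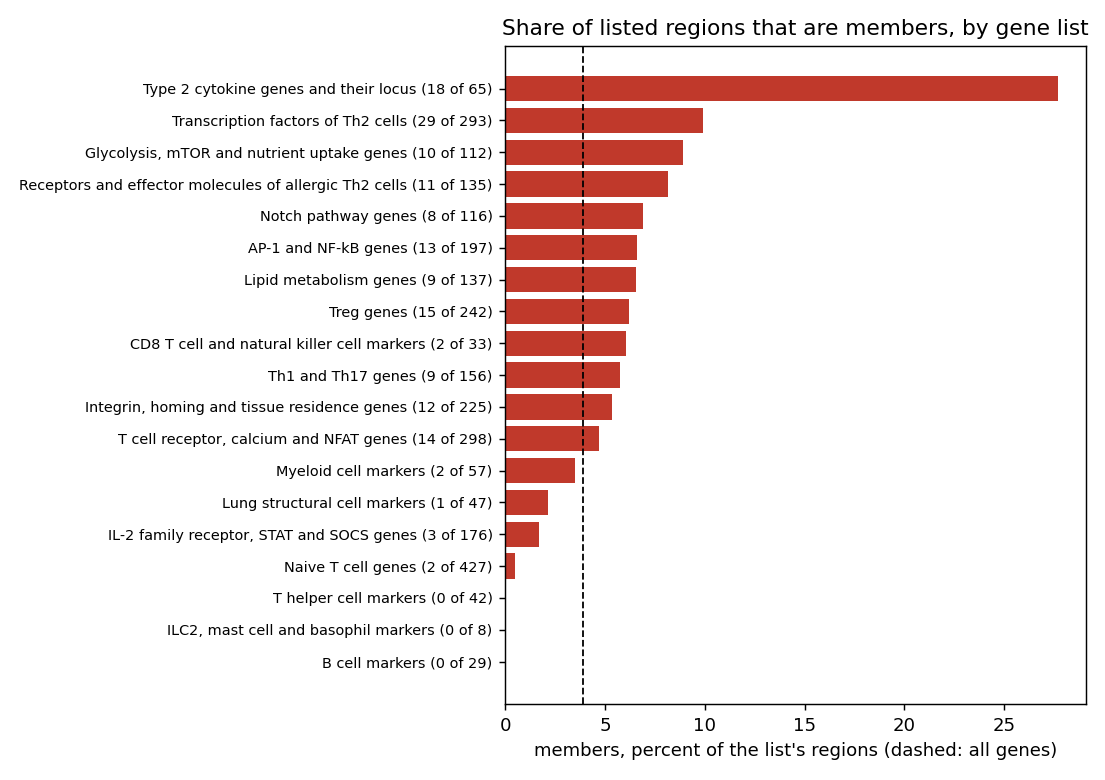
Members as a percent of all merged regions assigned to the genes of each of 19 lists (horizontal axis), with the counts beside each list name. The dashed line is the share over all regions assigned to a gene, 3.90%. The list of type 2 cytokine genes and their locus, which also holds other cytokine genes, stands at 27.7%.

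Receptors and effector molecules of allergic Th2 cells had 11 members of 135 regions (8.15%) at 5 of 24 genes, and 7 with genes within 10 kb only. More of the 135, 18, were shared by Th2 and Treg cells. Il1rl1, which encodes the IL-33 receptor ST2 that was itself used to sort the cells, had 2 members of 18, at 4.86 and 5.84 in Th2 minus naive and 4.69 and 5.67 in Th2 minus other effector, beside 8 regions shared by Th2 and Treg cells and 0 higher in Th2 than in Treg. Igfbp7, a secreted growth factor binding protein gene, had 4 members with smaller folds of 5.0 to 6.56. Ptger2, a prostaglandin E2 receptor gene, had 2, the stronger with 7.14 in Th2 minus naive and 6.97 in Th2 minus other effector. Plac8 had 2 and Cysltr1, the cysteinyl leukotriene receptor gene, had 1 with 4.64 and 4.47 in those contrasts. Lipid metabolism genes had 9 members of 137 regions (6.57%): besides Pparg, members lay at Acot7 (7.28 in Th2 minus naive, 7.11 in Th2 minus other effector) and Plin2, which coats lipid droplets (7.16 and 6.73). Lpl and Srebf2 had 1 member each, at smaller folds of 4.94 and 5.15. As many of the 137 regions, 9, were shared by Th2 and Treg cells.

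Glycolysis, mTOR and nutrient uptake genes had 10 members of 112 regions (8.93%) at 8 of 15 genes, and 5 of the 112 were shared by Th2 and Treg cells. Slc2a1, the gene of the glucose transporter GLUT1, had a member with 8.36 in Th2 minus naive and 8.19 in Th2 minus other effector, and none of its 6 regions was listed between Th2 and Treg cells. Myc, which drives growth and metabolism of activated T cells, had 3 members 8667 to 89165 bp away, with smaller folds of 5.54 to 6.65. Slc7a5, an amino acid transporter gene, had 1 with 6.67 in Th2 minus naive and 6.50 in Th2 minus other effector. The list of IL-2 family receptors, STAT and SOCS genes had 3 members of 176 regions (1.70%), all at inhibitors of cytokine signalling: 2 at Cish and 1 at Socs2, which had 8.24 in Th2 minus naive and 8.06 in Th2 minus other effector. On this list 10 regions were shared by Th2 and Treg cells. Il2ra, the gene of CD25 by which Treg cells were sorted, had 0 members of 17 regions and 3 regions higher in Treg than in Th2 cells.

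The remaining lists of T cell genes, to be read beside 3.90% over all assigned regions, were as follows. AP-1 and NF-kB genes had 13 members of 197 regions (6.60%), 5 at Nfkb1, 2 at Atf3 and 1 at Fosl2, which had 7.68 in Th2 minus naive and 7.51 in Th2 minus other effector. Notch pathway genes had 8 of 116 (6.90%), 6 of them at Rbpj, with 1 each at Maml1, a Notch coactivator gene, and Jag2, and only 3 of the 8 counted with genes within 10 kb. T cell receptor, calcium and NFAT genes had 14 of 298 (4.70%), among them 4 at Itpr1, 2 at Nfatc1 and 1 at Nr4a2, a region 2659 bp wide with 7.64 in Th2 minus naive and 6.88 in Th2 minus other effector. Integrin, homing and tissue residence genes had 12 of 225 (5.33%), with 3 at Cd44, a sort marker, and 2 each at Itgb1 and Rgs1. Th1 and Th17 genes had 9 of 156 (5.77%), or 5 with genes within 10 kb only. Ifng, the Th1 cytokine gene, had 1 at 4.23 in Th2 minus naive and 4.06 in Th2 minus other effector, and Runx3 1 at 7.77 and 7.60 in those contrasts. Shared by Th2 and Treg cells were 14, 5, 2, 13 and 5 regions of these lists in turn, against 1264 of 49848. This like set outnumbered the members on the AP-1 and NF-kB list and on the integrin list. Higher in Th2 than naive cells, a contrast that the rule used, were 36, 19, 30, 35 and 19 regions in turn, against 4731 of 49848.

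Treg genes had 15 members of 242 regions (6.20%) at 11 of 24 genes, and 36 of the 242 were listed higher in Treg than in Th2 cells. A further 22, more than the members, were shared by Th2 and Treg cells. Foxp3, the defining factor of Treg cells, had 0 members of 6 regions, and Ctla4, an inhibitory receptor gene, had 0 of 19. Ikzf2, the gene of the Treg factor Helios, had 1 member of 27, at 5.06 in Th2 minus naive and 4.88 in Th2 minus other effector, beside 7 regions higher in Treg than in Th2 cells. Several other genes with members on this list are also used by activated T cells. Havcr2 had 2, with 8.0 in Th2 minus naive and 7.83 in Th2 minus other effector over the promoter, Nrp1, a semaphorin and VEGF coreceptor gene, had 3 with smaller folds of 5.21 to 6.77, and Pdcd1, the gene of PD-1, had 2 with smaller folds of 5.49 and 6.07. Naive T cell genes had 2 members of 427 regions (0.468%), at Bcl2 and Tgfbr3, and since this list set the sign of the folds its low share is no independent evidence.

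Marker lists held 0 to 2 members each, to be read beside 3.90% of all assigned regions. Markers of all T helper cells had 0 members of 42 regions, and Cd4 had no listed region. Tables of differences do not show whether such genes are open in all 4 populations. B cell markers had 0 of 29 and those of ILC2, mast cells and basophils 0 of 8. Lung structural markers had 1 of 47 (2.13%), at Acta2, the smooth muscle actin gene, with 5.30 in Th2 minus naive and 4.25 in Th2 minus other effector. CD8 T cell and natural killer markers had 2 of 33 (6.06%), at Klrb1c and Nkg7, and their CD8 genes Cd8a and Cd8b1 had 0 members of 5 regions. Myeloid markers had 2 of 57 (3.51%), both at C/EBP factor genes, Cebpb with 6.85 in Th2 minus naive and 6.67 in Th2 minus other effector and Cebpa with 6.96 and 6.08. Of the 57 myeloid marker regions, 46 (80.7%) were listed higher in Th2 than other effector cells, against 53.2% of all merged regions. Listed higher in Th2 than naive cells were 10 (17.5%), against 9.67%, and higher in Th2 than in Treg cells also 10 (17.5%), against 6.72%. These last included 4 of 4 regions of Itgax, while Spi1 and Itgam had 0 regions higher in Th2 than in Treg cells and Csf1r had 1. The marker lists are short, and the myeloid list holds 10 genes. Of the 144 genes whose promoter window lay under a member, 8 were on any list. Those on none included Ccr1, Lilr4b, Cd300lf and Siglece, receptor genes that myeloid cells use, and, of other kinds, Epha7, Pcdh17, Wnt1 and Gja4. These genes were picked after their values were seen. The share of myeloid genes over all promoter windows was not counted, so no excess can be read from them. The part of other cell types in the members was not tested.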

How the data were processed

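Chromatin accessibility was measured by ATAC-seq (per the labels' protocols, 30 minutes of tagmentation, 16 PCR cycles and paired 125-base reads). The authors compared populations with DiffBind, and the submitters' processing notes name build mm9. The sources used here name no aligner, peak caller, normalization or threshold. Each deposited table holds positions and a fold, read as log2, the scale of that tool, first-named minus second-named population. At the 4 regions that allowed a check (1 with naive, 3 with other effector, each with Treg and Th2), folds added up exactly over 3 tables. The overall sign was taken from naive T cell genes, of whose listed regions 154 were then higher and 9 lower in naive than in Th2 cells, and 79 higher and 5 lower than in Treg cells. The tables of other effector cells hold 1 sign each, so those genes say nothing there, and the sign of other effector beside Th2 or Treg rests on the sums. Signs were then turned to Th2 minus the other population.

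The tables name unplaced sequences of GRCm38 type, and 21.9% of regions lay within 1 kb of a GRCm38.p6 gene end, against 4.2% to 6.16% after shifts, so coordinates were read as GRCm38. Titles say day 15, but 2 descriptions (other effector, naive) say D10, and a source label puts naive cells in lung. Titles and protocol were followed.

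Rows were merged with pandas 2.3.3, and the count checked with bedtools 2.31.1. The row with the larger absolute fold stood for a merged region. Of 287 list genes 286 matched the gene table, which lacks strand and exons, so gene ends were used. Motifs were searched in RefSeq promoter windows only. Merging was tested on simulated data. Alternatives changed merging, filtering, windows and gene assignment. Members, lists and named genes were chosen with earlier results of these data known. The text always names 13 genes (4 of the cytokine locus, Gata3, Il1rl1, Pparg, Rbpj, Bhlhe40, Foxp3, Ctla4, Il2ra, Ikzf2), the 22 genes with most members, the 10 largest and 3 smallest members, and up to 6 genes with a member per list (1 of them is not reported here). Single marker genes, the named promoter genes on no list, and Rptor as an example of a low difference, were picked after their values were seen. The rule used the contrasts and the tables hold no replicates, so no test was made.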

Additional observations from a re-analysis of the deposited data

How the results depend on the processing

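The count of 2090 members was 1621 with rows merged only where identical, 2041 with rows merged across gaps of up to 100 bp, 2035 with the weakest 10% of each table left out (these overlapped 1872 of the 2090) and 2085 without unplaced sequences and Y, all within 1.5 times. The median log2 folds stayed between 5.15 and 5.19 under the alternatives run. The share near a gene end, 10.7% within 1 kb, was 7.43% within 500 bp and 14.8% within 2 kb, as the window's own width dictates. With genes assigned only within 10 kb, fewer distal members counted, and 7 of 19 list counts moved: Th2 transcription factors to 17, Th2 receptors and effector molecules to 7, Th1 and Th17 genes to 5, naive T cell genes to 1, Notch pathway genes to 3, myeloid markers to 1 and lung structural markers to 0. The other 12 lists, and all 19 with the weakest 10% left out, stayed within 1.5 times. Genes with a member numbered 1190 within 10 kb and 1542 by nearest gene end, against 1537. No paired analysis was possible because the tables hold no replicate values, and for the same reason no replicate could be left out. Motif shares of whole regions and of their central 200 bp were not run, since no genome was used here. Depth is unknown, so what a missing Treg call allows cannot be bounded.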
